A study of Homo sapiens with 9 samples.

Results

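PFN2, TAGLN, STMN3 and GSN are 4 genes of the actin and microtubule cytoskeleton, and their RNA levels are described here across Caki-1 cells with a knockdown of TAF1D and control cells. Every row with one of these symbols in the deposited expression table was taken, 19 of its 20909 transcripts and 4 of its 6819 genes. PFN2 (Gene ID 5217), TAGLN (6876) and STMN3 (50861) had 1 listed transcript each and GSN (2934) had 16. RefSeq names 2 transcripts for PFN2, 2 for TAGLN and 3 for STMN3. Those not listed were not analysed here, so a level or sum given for these genes is that of 1 transcript. The genes were picked for how their levels differed between these same groups. The differences are therefore given as sizes with their errors, and no p-value is printed for these genes. Where it is said which of them passed a p-value threshold, that is a description and not a test.

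Caki-1 cells are an established human line of clear cell renal cell carcinoma. Total RNA was sequenced in 9 libraries, 3 each of SH1 and SH3, both knocked down for TAF1D by short hairpin RNA, and 3 of a control of genotype WT. The protein TAF1D belongs to the complex SL1, which serves RNA polymerase I at ribosomal RNA promoters, and the study asks about its role in this carcinoma. SH1 and SH3 are not explained in the labels, which also leave unsaid whether libraries of a group came from separate cultures, so p-values measure only the spread between these libraries, which may be technical.

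Actin filaments grow from monomers that profilins hand to growing ends, are tied together by crosslinking proteins of the transgelin and calponin families, and are cut and capped by gelsolin in the presence of calcium. Microtubules grow from tubulin dimers, which stathmins bind and withhold. PFN2 encodes profilin 2, the profilin best known from neurons. TAGLN encodes transgelin (SM22 alpha), an actin-binding protein abundant in smooth muscle and a known target of serum response factor (SRF). STMN3 encodes stathmin 3 (SCLIP), known mainly from the nervous system, and GSN encodes gelsolin, made as a cytoplasmic and as a secreted plasma form from different starts of 1 gene.

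The table is a selection: each of its transcripts differed at least 2-fold in estimated count between SH1 1 and control 1, against 51.51% to 64.85% of them in the other 35 pairs of libraries. Listed counts added up to 1358215 to 1596467 per library, 4.202% to 5.176% of all TPM (a share of all transcripts, corrected for length), which is not the depth of a library. TAF1D itself was not analysed here, and so its knockdown was not checked. Of 11 markers of clear cell renal carcinoma, PAX8, MME and VEGFA were listed, and the other 8 were not analysed here. The listed transcripts of the 3 summed to 11.6 to 18.1 FPKM in SH1, 15.1 to 22.7 in SH3 and 8.07 to 10.3 in control libraries, where FPKM is fragments per kilobase of transcript, scaled to library size. Of 10 blood and endothelial markers CD68 alone was listed, with 13.2 to 17.8 FPKM in SH1, 12.7 to 14.1 in SH3 and 7.84 to 12.5 in control libraries over its transcripts.

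The transcripts of the 4 genes that GENCODE v29 links to listed RefSeq names are placed on GRCh38, while the deposited table gives no positions. PFN2 NM_002628 lies at chr3:149964904-149970950 on the minus strand, TAGLN NM_003186 at chr11:117199321-117204557 on the plus strand, and STMN3 NM_015894 at chr20:63639708-63653427 on the minus strand. GSN NM_000177, which encodes the secreted form, lies at chr9:121299793-121332842 on the plus strand. The transcript linked to GSN NM_001127666, NM_001127667 and NM_001353070 begins further upstream, at base 121268060. RefSeq promoter windows (GRCh38.p14, 250 bases before to 50 bases after a start) were found for 2 of the 4 genes, with 1 start for STMN3 and 6 for GSN. PFN2 and TAGLN have no entry.

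A few windows are shown, because STMN3 and the plasma form of GSN were both highest in SH1 and because GSN has starts far apart. The window of GSN start 2 (chr9:121267912-121268211, plus strand) holds the first base of the transcript linked to NM_001127666 and its 2 companions. The window of GSN start 6 (chr9:121299410-121299709, plus strand) ends 84 bases before the first base of NM_000177. The STMN3 window (chr20:63652717-63653016, minus strand) belongs to another STMN3 start, and the first base of the listed NM_015894 lies 661 bases upstream of that start. Each is printed 5′ to 3′ on the gene's strand, with GGGCGG or its reverse complement CCGCCC in capitals.
STMN3: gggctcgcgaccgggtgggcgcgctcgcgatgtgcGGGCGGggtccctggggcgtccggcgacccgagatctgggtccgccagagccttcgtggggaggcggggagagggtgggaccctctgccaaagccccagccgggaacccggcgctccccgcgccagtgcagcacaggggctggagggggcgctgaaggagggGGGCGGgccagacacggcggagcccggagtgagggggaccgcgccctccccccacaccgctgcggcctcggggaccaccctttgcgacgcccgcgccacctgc
GSN start 2: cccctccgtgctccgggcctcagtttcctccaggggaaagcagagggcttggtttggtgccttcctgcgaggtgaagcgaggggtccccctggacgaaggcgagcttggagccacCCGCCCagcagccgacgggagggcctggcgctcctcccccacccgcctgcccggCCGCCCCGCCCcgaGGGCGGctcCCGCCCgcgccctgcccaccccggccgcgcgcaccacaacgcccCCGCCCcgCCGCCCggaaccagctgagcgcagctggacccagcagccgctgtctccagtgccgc
GSN start 6: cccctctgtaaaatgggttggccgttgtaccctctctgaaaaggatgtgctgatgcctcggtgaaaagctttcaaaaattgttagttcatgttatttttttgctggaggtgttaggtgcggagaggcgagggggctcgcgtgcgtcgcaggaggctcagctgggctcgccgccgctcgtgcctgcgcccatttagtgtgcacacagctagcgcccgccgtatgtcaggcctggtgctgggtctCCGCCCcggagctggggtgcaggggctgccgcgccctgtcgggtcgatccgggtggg

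GGGCGG, the core of the GC box, was found 2 times in the STMN3 window, 7 times in that of GSN start 2 and 1 time in that of GSN start 6, counting both strands. Of 35116 RefSeq promoter windows of this length, 45% hold it. The TATA element was searched as TATAAA, which is in 11.5% of all windows and in none of these. The AP-1 element, its own reverse complement, was searched as TGANTCA, which is in 7.71% of all windows and in none of these. The CArG box bound by SRF is in 1.29% of all windows and in none of these. In GSN start 2 a pair of GGGCGG matches shares 1 base, and no other matches overlap. A match describes letters in the window only.

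PFN2 was lowest in SH1 and highest in SH3. NM_002628 had 37.06, 35.21 and 39.03 FPKM in SH1 1 to 3, 144.53, 152.18 and 133.6 FPKM in SH3 1 to 3, and 86.81, 116.12 and 100.13 FPKM in control 1 to 3. No library of one group lay within the range of another, so the order was SH3, control, SH1. The means were 37.1 ± 1.91 FPKM in SH1, 143 ± 9.34 in SH3 and 101 ± 14.7 in control libraries (SD, n = 3 each). The same order held for the deposited TPM, with 87.0 ± 4.27 in SH1, 315 ± 16.9 in SH3 and 225 ± 16.8 in control libraries (SD, n = 3 each).

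The log2 fold change of PFN2 NM_002628 was -1.56 ± 0.16 in SH1 against control (SE, edgeR fit of all transcripts). In SH3 against control it was 0.46 ± 0.15, and in SH3 against SH1 it was 2.02 ± 0.16. Both knockdown groups were thus on opposite sides of the control, with a smaller distance for SH3. Without SH1 1 and control 1, the pair the table was selected on, the log2 fold change was -1.64 ± 0.16 in SH1 against control and 2.003 ± 0.15 in SH3 against SH1. In SH3 against control it fell to 0.36 ± 0.14 without them. In bulk RNA, fewer cells with a transcript and less of it per cell cannot be told apart, which holds for all 4 genes.

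TAGLN was a low transcript with the same order of groups as PFN2. NM_003186 had 1.11, 1.37 and 1.44 FPKM in SH1 1 to 3, 4.67, 5.3 and 4.8 FPKM in SH3 1 to 3, and 3.19, 4.59 and 4.52 FPKM in control 1 to 3. All SH1 libraries lay below all others. SH3 and control, neighbours in this order, were barely apart: the lowest SH3 library had 4.67 and the highest control library 4.59 FPKM, and in the authors' normalized read counts the ranges overlapped (335 to 385 in SH3 and 226 to 344 in control libraries). The estimated counts behind these levels were 80.88 to 108.18 in SH1, 344.75 to 392.96 in SH3 and 233.25 to 342.26 in control libraries. At the lowest of them counting error alone is 11.1%.

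TAGLN averaged 1.31 ± 0.17 FPKM in SH1, 4.92 ± 0.33 in SH3 and 4.10 ± 0.79 in control libraries (SD, n = 3 each). Its log2 fold change was -1.75 ± 0.51 in SH1 against control, 0.22 ± 0.50 in SH3 against control and 1.98 ± 0.52 in SH3 against SH1 (SE). Without SH1 1 and control 1 it was -1.79 ± 0.41 in SH1 against control and 0.07 ± 0.36 in SH3 against control. On log2 of FPKM plus 1 the change in SH1 was -1.14 ± 0.35, since the added 1 is close to the level itself.

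TAGLN is also a marker of smooth muscle and fibroblasts, and 3 of 13 other markers of those cells were listed. Their listed transcripts summed to 0.34 to 1.14 FPKM in SH1, 0.30 to 2.18 in SH3 and 1.05 to 4.30 in control libraries. ACTA2 NM_001613, smooth muscle actin, was listed at 0 in all SH1 libraries, at 0 to 1.9 FPKM in SH3 and at 0.46 to 3.6 FPKM in control libraries. MYH11 NM_022844, smooth muscle myosin, was listed at 0 in all SH3 and control libraries and at up to 0.1 FPKM in SH1. PDGFRB NM_002609 stayed at or below 0.33 FPKM in all libraries. The part of these markers in the TAGLN difference was not tested.

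STMN3 was highest in SH1. By listed transcripts, per length, it was the most abundant of the 4 genes in SH1 and control libraries, and level with PFN2 in SH3. NM_015894 had 219.66, 256.15 and 318.54 FPKM in SH1 1 to 3, 138.62, 143.81 and 146.16 FPKM in SH3 1 to 3, and 107.98, 133.33 and 116.82 FPKM in control 1 to 3. All SH1 libraries lay above all others, and SH1 also spread the widest. SH3 lay just above control, with 138.62 FPKM in its lowest library against 133.33 FPKM in the highest control library, while in the authors' normalized read counts these ranges overlapped (5849 to 6214 in SH3 and 4489 to 5873 in control libraries). The means were 264.8 ± 50.002 FPKM in SH1, 143 ± 3.86 in SH3 and 119 ± 12.9 in control libraries (SD, n = 3 each).

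The log2 fold change of STMN3 NM_015894 was 1.04 ± 0.15 in SH1 against control, 0.22 ± 0.15 in SH3 against control and -0.82 ± 0.15 in SH3 against SH1 (SE). Its estimated counts differed 2.02-fold between SH1 1 and control 1, just inside the 2-fold difference that every listed transcript meets. SH1 1 was the lowest of the SH1 libraries and control 1 the lowest of the control libraries. Without SH1 1 and control 1 the log2 fold change in SH1 against control was 1.10 ± 0.14.

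**Figure D1:**
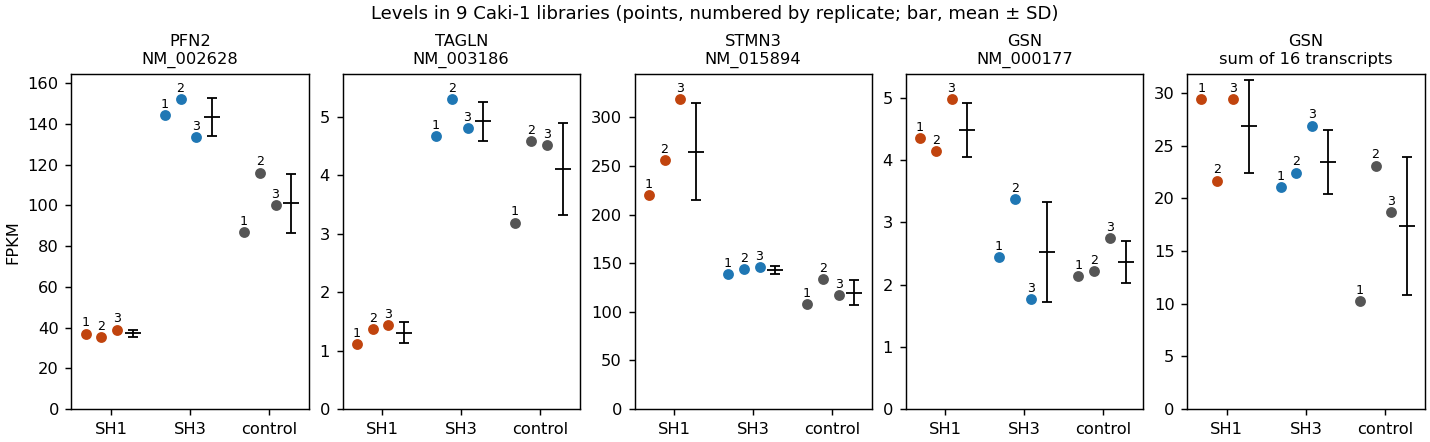
FPKM of PFN2, TAGLN, STMN3 and GSN in each library (points, numbered by replicate) for SH1, SH3 and control, with the mean and SD beside them (n = 3 each). PFN2 and TAGLN are lowest and STMN3 highest in all 3 SH1 libraries, whereas the sums of the 16 GSN transcripts overlap, with control 1 the lowest at 10.2 FPKM.

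GSN had 16 listed transcripts, 13 with curated (NM) and 3 with predicted (XM) RefSeq names, of 49 in the RefSeq table, where 14 of the 16 were found. Summed, they gave estimated counts of 1486.75, 1086.28 and 1525.74 in SH1 1 to 3, 1073.53, 1153.33 and 1391.89 in SH3 1 to 3, and 514.4, 1194.68 and 931.04 in control 1 to 3. Control 1 had the lowest sum and stood apart from the other control libraries. In the other 7 libraries, without SH1 1 and control 1, the sums were 1086 and 1526 in SH1, 1074 to 1392 in SH3 and 931 and 1195 in control libraries, so the groups overlapped. In FPKM the sums averaged 26.8 ± 4.46 in SH1, 23.5 ± 3.07 in SH3 and 17.4 ± 6.55 in control libraries (SD, n = 3 each), also with overlap. In TPM the sums did not overlap between SH1 (50.57 to 71.36) and control libraries (24.51 to 48.23), while SH3 (46.85 to 59.65) overlapped both.

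The log2 fold change of the GSN sum was 0.44 ± 0.32 in SH1 against control and 0.14 ± 0.25 without SH1 1 and control 1 (SE). In SH3 against control it was 0.33 ± 0.32 in all libraries and 0.05 ± 0.23 without those libraries. In SH3 against SH1 it was -0.11 ± 0.32. GSN transcripts outside the deposited selection are not in this sum and were not analysed here.

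NM_000177, which encodes plasma gelsolin, had the highest mean count of the 16. It had 4.35, 4.14 and 4.98 FPKM in SH1 1 to 3, 2.44, 3.37 and 1.77 FPKM in SH3 1 to 3, and 2.13, 2.22 and 2.75 FPKM in control 1 to 3. All SH1 libraries lay above all others, and SH3 overlapped control. Its log2 fold change was 0.81 ± 0.68 in SH1 against control, 0.05 ± 0.68 in SH3 against control and -0.76 ± 0.68 in SH3 against SH1 (SE). NM_000177 held 14.6% to 19.2% of the listed GSN counts in SH1, 6.56% to 14.9% in SH3 and 9.55% to 20.8% in control libraries, so its share of the gene overlapped between groups.

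The other GSN transcripts varied widely within a group, and reads that several transcripts share were divided among them by estimation. Of the 16, 9 were listed at 0 in at least 1 library. NM_001127665 had 127.99, 99.31 and 167.68 estimated counts in SH1 1 to 3, 96.84, 0 and 158.8 in SH3 1 to 3, and 15.13, 142.75 and 128.94 in control 1 to 3. XM_011518593 had 108.79 in SH1 1, 124.26 in SH3 2 and 23.45 in control 2, and 0 in the other 6 libraries. Neither had a level that marked a group.

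Between SH1 1 and control 1, 13 of the 16 GSN transcripts were higher in SH1 and 3 were lower. Between the means of SH1 2 and 3 and of control 2 and 3, 8 were higher in SH1, 7 lower and 1 at 0 in both, and 7 had the same direction in both sets. These directions are of estimated counts not scaled to library size. XM_017014648, counted as higher in SH1 in both sets, had a log2 fold change of -0.02 ± 3.83 without SH1 1 and control 1 (SE, edgeR). NM_001353070 was, besides NM_000177, the one GSN transcript whose FPKM did not overlap between SH1 (1.76 to 2.25) and control libraries (0.61 to 1.57). NM_001353072 was listed at 0 in all 3 SH1 libraries, while its estimated counts were 35.24, 38.82 and 41.62 in SH3 1 to 3 and 32.53, 14.67 and 0 in control 1 to 3. With 3 counts over the SH1 libraries as a floor, it was at least 38.6-fold higher in SH3 than in SH1, a bound that covers counting error only.

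**Figure D2:**
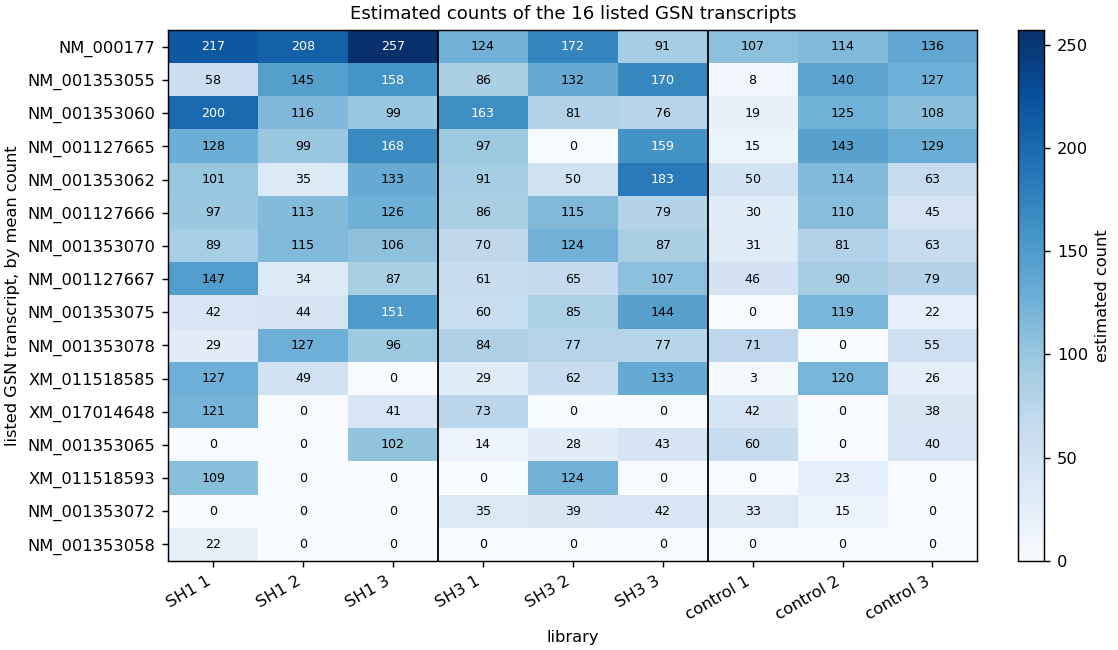
Estimated counts of the 16 listed GSN transcripts (rows, by mean count) in the 9 libraries (columns, SH1, SH3, control), with darker cells for higher counts. NM_000177 is highest in the 3 SH1 libraries (208 to 257), and 9 rows hold a 0 in at least 1 library, control 1 being low in most rows.

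Of the 19 transcripts, 18 passed the low-count filter, all but GSN NM_001353058, which reached 21.51 counts in SH1 1 and 0.02 or less elsewhere. At an adjusted p of 0.05, 2 of the 18 passed in SH1 against control, PFN2 and STMN3, where 0.137% of all 17495 transcripts tested did. DESeq2 also called 2 there, against 2.82% of all, but these were PFN2 and TAGLN, without STMN3. In SH3 against control 0 of the 18 passed, against 0.0286% of all, with 1 under an unadjusted p of 0.05. DESeq2 called 0 of the 18 there, against 2.05% of all, and limma on log2 of FPKM plus 1 called 0, against 0.0857% of all. PFN2 alone passed by edgeR in SH3 against SH1, against 0.0972% of all. DESeq2 called 3 there, PFN2, TAGLN and a GSN transcript, against 2.25% of all. These groups also chose the genes, so the counts are a description.

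Summed per gene, PFN2, TAGLN and STMN3 were past the same edgeR threshold in SH1 against control, 3 of the 4 genes, where 2.14% of 6398 sums passed. Each of the 3 has 1 listed transcript, so its sum holds the same counts as that transcript. Only the fit and the features adjusted over differ, and the sums of these genes add no data. The log2 fold changes of these sums were -1.62 ± 0.16 for PFN2, -1.81 ± 0.27 for TAGLN and 0.98 ± 0.17 for STMN3 (SE). In SH3 against SH1 the sums of PFN2 (2.03 ± 0.16) and TAGLN (1.99 ± 0.27) passed, against 1.36% of all sums. DESeq2 and limma on log2 of FPKM plus 1 each called 3 of the 4 there, STMN3 too (-0.83 ± 0.19 and -0.87 ± 0.14). Their shares over all sums are not given here for that comparison. In SH3 against control 0 of 4 passed by edgeR, against 0.406% of all, with 1 under an unadjusted p of 0.05. DESeq2 called 0 of the 4 there, against 4.02% of all, and limma called 0, against 0.875% of all. Both comparisons with control share its libraries, as do both with SH1. Of the 20 alternative settings the SH1 call on the PFN2 sum passed in 20, on the TAGLN sum in 16 and on the STMN3 sum in 11. On the transcripts, with the same counts, it passed in 18 for PFN2, in 6 for STMN3 and in 1, the DESeq2 Wald test, for TAGLN. The TAGLN sum missed it without SH1 1, SH1 2 or control 3 and with only the groups compared, and its log2 fold change ran from -1.998 to -1.14 over the alternatives. The STMN3 sum missed it without SH1 2, SH1 3, any SH3 library, control 1 or control 3, without SH1 1 and control 1 together, and with only the groups compared, at 0.86 to 1.19 over the alternatives. In SH3 against SH1 the TAGLN sum missed it without SH1 1, SH1 2 or any SH3 library, at 1.36 to 2.06. The TAGLN transcript passed there in 1 of the 20, again the DESeq2 Wald test.

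FPKM did not overlap between SH1 and control libraries for 5 of the 18 transcripts, where 16.1% of all tested transcripts were without overlap. For SH3 against control 5 did not, against 12.3% of all, and for SH3 against SH1 5 did not, against 14.5% of all. PFN2, TAGLN and STMN3 were among the 5 each time.

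**Figure D3:**
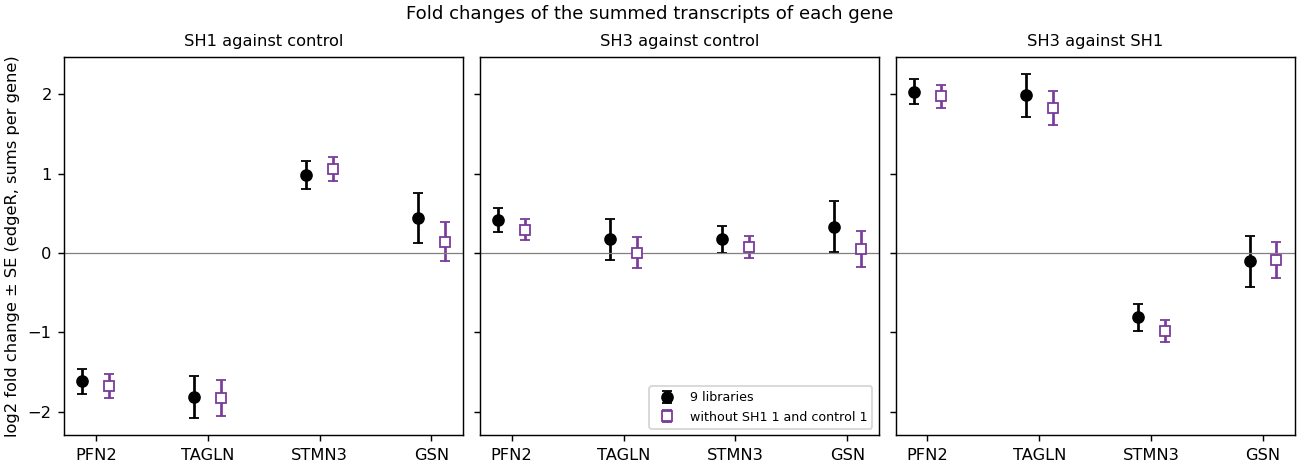
Log2 fold changes ± SE of the summed transcripts of each gene (edgeR) in SH1 against control, SH3 against control and SH3 against SH1, for all 9 libraries (filled circles) and without SH1 1 and control 1 (open squares). PFN2 and TAGLN are below 0 and STMN3 above 0 in SH1 against control, and the GSN sum goes to 0.14 without that pair of libraries.

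The transcripts most like each gene over the 9 libraries were found by Pearson's r of log2 CPM, which here describes points that fall in 3 groups. PFN2 and TAGLN were near each other, with r = 0.984. KRTAP2-3 NM_001165252, a hair keratin-associated protein, was close to TAGLN (r = 0.988) and PFN2 (r = 0.978), with 2.33 ± 0.08 FPKM in SH1, 16.9 ± 0.72 in SH3 and 15.1 ± 4.05 in control libraries (SD, n = 3 each). It is listed as 2 copies with equal values, which its reads cannot separate. ANKRD11 XM_011523051, of a chromatin regulator, followed PFN2 with r = 0.985 and was listed at 0 in all SH1 libraries.

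Among the transcripts most like STMN3 were COL6A2 NM_001849, a collagen VI chain (r = 0.989), and SLC68A1 XM_011540167 (r = 0.984). COL6A2 had 76.4 ± 13.3 FPKM in SH1, 42.2 ± 1.87 in SH3 and 35.8 ± 4.97 in control libraries (SD, n = 3 each). For GSN NM_000177 the most alike were CEBPD NM_005195, a transcription factor of the acute phase response (r = 0.964), ZBTB7A NM_015898 (r = 0.934) and a copy of ARHGAP11A (r = 0.918). CEBPD had 7.61 ± 1.03 FPKM in SH1, 4.47 ± 2.09 in SH3 and 3.81 ± 0.93 in control libraries (SD, n = 3 each).

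Relatives of the 4 genes were few in the table. Of the list of profilins and other actin monomer binders 7 further genes were listed, among them PFN4, and of the gelsolin family 5, which were CAPG, SVIL, AVIL, FLII and VILL. No further gene of the transgelin and calponin family or of the stathmin family was listed, and those were not analysed here. None of the 12 relatives had a transcript past the edgeR threshold in a comparison, while the sum over 9 MTSS1 transcripts did in SH1 against control (edgeR adjusted p = 0.0404, 0.241 without SH1 1 and control 1, and 4.02e-05 to 0.241 over the 20 alternatives). That sum averaged 6.26 FPKM in SH1, 6.18 in SH3 and 2.04 in control libraries. Its log2 fold change was 1.454 ± 0.274 in SH1 and 1.525 ± 0.275 in SH3 against control (SE, edgeR adjusted p = 0.0862 in SH3). SVIL, the membrane-linked supervillin, had 2.98 ± 0.41 FPKM in SH1, 1.41 ± 0.21 in SH3 and 1.43 ± 0.77 in control libraries (SD, n = 3 each). CAPG, which caps filaments without cutting them, had 6.09 ± 2.32 FPKM in SH1, 7.56 ± 1.33 in SH3 and 2.71 ± 2.38 in control libraries (SD, n = 3 each).

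The wider cytoskeleton lists, with actin nucleators, crosslinkers, tubulins, adhesion adaptors and SRF targets, held 461 tested transcripts of 124 further genes. In SH1 against control 1 of the 461 passed by edgeR and was higher, where 0.137% of all transcripts passed, and the median log2 fold change was -0.02, beside 0.04 over all transcripts tested. In SH3 against control 1 passed, higher again, where 0.0286% of all did, with a median of 0.19 beside 0.03 over all. In SH3 against SH1 0 passed by edgeR, 8 by DESeq2, where 2.25% of all were called, and 0 by limma. By edgeR 29 were under an unadjusted p of 0.05, a count whose share over all transcripts is not given here.

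The one transcript was EGR1 NM_001964, an immediate early transcription factor and SRF target. It had 100 ± 24.3 FPKM in SH1, 110.0 ± 17.1 in SH3 and 23.4 ± 3.92 in control libraries (SD, n = 3 each). EGR1 rose by a log2 fold change of 1.997 ± 0.205 in SH1 (SE, adjusted p = 0.00634) and 2.20 ± 0.21 in SH3 (adjusted p = 0.0118) by edgeR, higher in 3 of 3 libraries of each. Over the 20 alternatives the adjusted p ran from 0.000485 to 0.15 in SH1 and from 0.000974 to 0.139 in SH3, and without SH1 1 and control 1 it was 0.141 and 0.139. It also missed the threshold without control 1 or control 2 in SH1 and without SH1 1, control 2 or control 3 in SH3. The list of SRF, its cofactors and targets, with EGR1, held 11 tested sums. In SH1 against control 2 of the 11 were above 0, with a median log2 fold change of -0.62 beside -0.03 over all sums. In SH3 against control 5 were above 0, with a median of -0.15 beside -0.03 over all.

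On sums per gene, 7 of 126 further cytoskeleton genes passed in SH1 against control, where 2.14% of all sums did. They are named after their values were seen. ARPC2, EGR1, FMNL1, MTSS1, PTK2B and TMOD1 rose, and MACF1 fell. Without SH1 1 and control 1, the pair the table was selected on, FMNL1 alone still passed and the other 6 did not, with adjusted p = 0.14 for ARPC2, 0.0519 for EGR1 and 0.0788 for TMOD1 by edgeR. Over the 20 alternatives the adjusted p ran from 5.82e-07 to 0.14 for ARPC2, from 1.56e-14 to 0.0519 for EGR1 and from 2e-07 to 0.0989 for TMOD1. FMNL1, a formin that elongates filaments, had 14.1 ± 2.21 FPKM in SH1, 5.55 ± 0.52 in SH3 and 3.67 ± 0.93 in control libraries (SD, n = 3 each). Its log2 fold change in SH1 against control was 1.75 ± 0.25 (SE, edgeR adjusted p = 0.0133, 0.0227 without SH1 1 and control 1, and 4.85e-09 to 0.0817 over the 20 alternatives). MACF1, which links actin filaments to microtubules, had 1.01 ± 0.05 FPKM in SH1, 2.52 ± 0.53 in SH3 and 1.87 ± 0.26 in control libraries (SD, n = 3 each). Its mean, like that of PFN2, was lowest in SH1 and highest in SH3. Unlike those of PFN2, its SH3 (1.91 to 2.87 FPKM) and control libraries (1.57 to 2.05 FPKM) overlapped. The log2 fold change of MACF1 was 0.36 ± 0.19 in SH3 against control (SE, edgeR adjusted p = 0.673). In SH1 against control it was -1.05 ± 0.19 (edgeR adjusted p = 0.0353, 0.226 without SH1 1 and control 1, and 2.72e-05 to 0.295 over the alternatives). PTK2B, a focal adhesion kinase relative, rose in SH1 by 1.85 ± 0.30 (edgeR adjusted p = 0.0223, 0.0761 without those libraries, and 8.26e-09 to 0.0988 over the alternatives). ARPC2, a subunit of the Arp2/3 nucleator, was listed at 0 in all control libraries, at 1.75 to 7.18 FPKM in SH1 and at 0.45 to 2.51 FPKM in SH3. In SH3 against control it did not pass (edgeR adjusted p = 0.134). Only 1 transcript of the gene is listed.

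**Figure D4:**
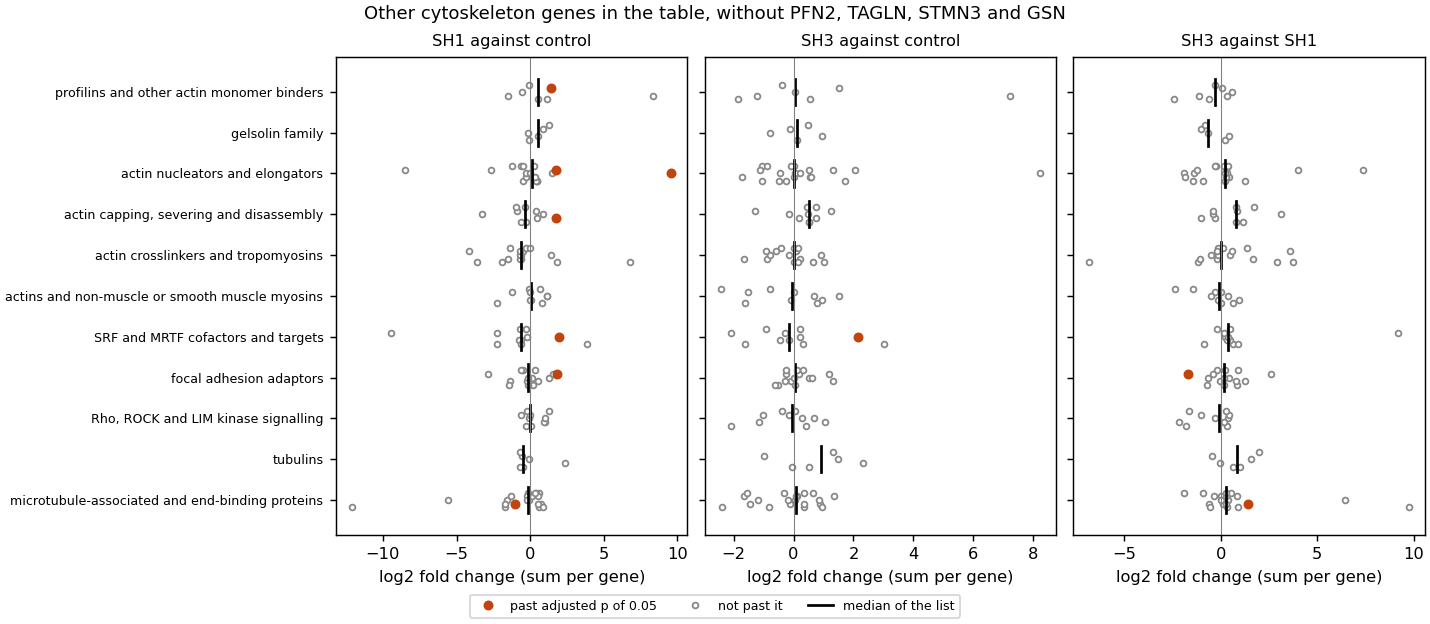
Log2 fold changes of sums per gene (points, 1 per gene) for the cytoskeleton lists without the 4 genes, in SH1 against control, SH3 against control and SH3 against SH1, with list medians as bars and genes past an adjusted p of 0.05 filled. Genes lie on both sides of 0 in each comparison, with 7 filled in SH1 against control, 1 in SH3 against control and 2 in SH3 against SH1.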

How the data were processed

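Total RNA of 9 Caki-1 libraries was sequenced, and each library was assigned to SH1, SH3 or control by its own label. Per the file headers, the deposited table gives an estimated (expected) count, FPKM, TPM and a normalized read count per transcript and library. The authors' normalized read count is a linear signal: each library's estimated counts, raised to the next whole number, over 1 library factor. The submitters' processing notes name the build mm10, whereas 6813 of 6819 gene numbers are in the human RefSeq table, so the rows were read as human. The aligner and counter are not given in the sources used here. The deposited table leaves 0 sample columns unassigned, and 85 gene symbols were updated by gene number.

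Deposited estimated counts, 65.11% of them not whole, were rounded and tested with edgeR 4.0.16 (R 4.3.3) by quasi-likelihood with TMM scaling, filterByExpr (minimum count 10) and robust dispersions, in 1 fit of 9 libraries, per transcript and on sums per gene number. Benjamini-Hochberg adjustment ran over all features of a comparison, with a threshold of 0.05. SE is the size of the log2 fold change over the square root of F. The script was tested on simulated data. Levels are the deposited FPKM, as mean ± SD. Bounds on a fold use 3 counts over a group whose libraries are all at 0. Alternatives were DESeq2 1.42.0 size factors or Wald test, no TMM, the authors' factors, no filter, a mean of 5 CPM, limma 3.58.1 on log2 of FPKM plus 1 or plus 0.1, only the groups compared, a replicate block, leaving out each library, and leaving out SH1 1 and control 1 together.

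The rule for named genes took all rows of the 4 genes, list transcripts that passed and averaged 1 FPKM or more, listed relatives of the 4 genes by their highest transcript, and per gene the 3 transcripts with the highest Pearson r of log2 CPM, of which 1 for STMN3 is not reported here. The 4 genes and all lists were chosen with earlier results of these data known.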

Additional observations from a re-analysis of the deposited data

Results flagged for a closer look

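PFN2 and TAGLN lay on opposite sides of control in SH3 and SH1: every SH3 library was above and every SH1 library below all control libraries in FPKM. For TAGLN the SH3 side was narrow: the lowest SH3 library had 4.67 and the highest control library 4.59 FPKM, and the authors' normalized read counts overlapped. Its log2 fold change in SH3 against control was 0.22 ± 0.50 (SE), 0.07 without SH1 1 and control 1, and for the TAGLN sum 0.17, with -0.01 to 0.31 over the 20 alternatives and a change of sign in 1 of them. The log2 fold change of SH3 against SH1 was 2.02 for PFN2 NM_002628 and 1.98 for TAGLN NM_003186. The sums of these genes, which hold the same counts in another fit, gave 2.03 and 1.99. GSN NM_001353072 had 35.24 to 41.62 estimated counts in SH3, 0 in every SH1 library and 0 to 32.53 in control libraries (mean 15.7). In TPM, SH3 (1.45 to 1.68) and control libraries (0 to 1.47) overlapped. With 3 counts over the SH1 libraries as a floor it was at least 38.6-fold higher in SH3 than in SH1. This bound covers counting error only, not the division of shared reads among transcripts. On log2 of FPKM plus 1 the change in SH3 against SH1 was 0.77 ± 0.23 (SE, limma). The edgeR and DESeq2 calls on SH3 against SH1 stand beside their background shares above as a description, since the genes were chosen on these differences, and no independent test was made.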

How the results depend on the processing

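Over all 20 alternatives the log2 fold changes of PFN2, TAGLN and STMN3 kept their sign in SH1 against control and in SH3 against SH1, with -1.66 to -1.41, -1.90 to -1.14 and 0.89 to 1.18 for the transcripts in SH1 against control. Counts of calls moved more. Of the 2 member transcripts called in SH1 against control, 1 remained with the authors' factors, without TMM and without SH1 1 and control 1, and 0 with only the groups compared; leaving out 1 library gave 0 to 2. Member sums called there were 1 with only the groups compared and 1 to 3 with 1 library left out, 1 without SH1 2 or without control 3. In SH3 against SH1, DESeq2 called 3 member transcripts and limma on log2 of FPKM plus 0.1 called 2, against 1. Of the member sums there, DESeq2 and limma on log2 of FPKM plus 1 each called 3, STMN3 among them, against 2. Shares over all features are not given here for these limma counts or the DESeq2 sums, so the further calls cannot be weighed. With 1 library left out the sums called were 1 to 2, 1 without any of SH1 1, SH1 2 or the 3 SH3 libraries. In SH3 against control, 0 were called with 1 library left out. Of the other cytoskeleton transcripts, DESeq2 called 15 in SH1 against control, 9 in SH3 against control and 8 in SH3 against SH1. Of all transcripts it called 2.82%, 2.05% and 2.25%. Limma with 0.1 called 3 of the cytoskeleton transcripts in the first comparison, and its share over all is not given here. By edgeR the counts of these transcripts called were 0 in both comparisons with control with only the groups compared and without SH1 1 and control 1, and 0 to 1 with 1 library left out. The cause was not tested. With the replicate number as a block 1 member transcript was called in SH1 against control, and it changed no other count by over 1.5 times. Deviations of 9 same-numbered pairs correlated at -0.28 to 0.03. The -0.28 was of SH1 1 and control 1, whose 2-fold difference selected the table. The check therefore cannot decide whether the numbers paired SH1 and control libraries. Same-numbered pairs with an SH3 library correlated at -0.004 to 0.03, so no pairing by number was seen there. TAGLN and single GSN transcripts rest on few counts, and the selection of the table on SH1 1 and control 1 limits every comparison with them.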
